A study of Mus musculus with 36 samples.

Results

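The 6 RNA-seq libraries of PBS-treated RAW264.7 cells in the IFNγ count table were compared by the naming scheme of their columns, 3 libraries labelled as replicates 1–3 against 3 labelled as replicates 4–6. The rule that defines both sets uses the sample labels and no measured value, and it takes 6 of the 36 libraries of the series. RAW264.7 is an established mouse macrophage line grown from a virus-induced tumour, so all libraries come from 1 transformed line. In the whole study these cells were cultured for 72 h with PBS, with the synthetic peptide 65–79*SE or with the synthetic peptide 65–79*PE, each peptide at 100 µg/ml with IFNγ or Il-4 at 5 ng/ml, and each table held 18 libraries. The labels give the control as PBS with the table's cytokine in its title, and the sources do not settle whether PBS cells also received IFNγ. All 6 libraries carry the same line, treatment and time, and the study describes its 6 biological replicates as coming from 2 independent experiments.

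The methods of the study describe poly(A) selection and stranded library preparation for the libraries as a whole, and no source used here states that the RNA selection changed between replicates 1–3 and 4–6. The naming scheme, the culture experiment, the library preparation and the sequencing run cannot be told apart in these 6 libraries. The transcript classes below are therefore described as they were counted, and the part of RNA selection, culture or any other step in their differences was not tested.

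Most mRNAs end in a poly(A) tail that is added after cleavage near an AATAAA signal, and oligo(dT) beads capture RNA by that tail. Several abundant RNAs carry no such tail. The signal recognition particle RNA, 7SK, the RNA parts of RNase P and RNase MRP, the Y RNAs and the vault RNAs are transcribed by RNA polymerase III and end in a short run of T in the gene, spliceosomal snRNAs are trimmed from longer precursors, and most snoRNAs and scaRNAs are released from introns of host genes. Replication-dependent histone mRNAs, which supply histones while DNA is copied, end after a conserved stem-loop in place of a poly(A) tail, whereas the replacement histone variants are made from ordinary polyadenylated mRNAs.

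Sequences of members described below are shown first, with the letters by which their classes are known. All are annotated transcripts of GENCODE release M21 on GRCm38, written 5′ to 3′ on the strand of the gene. The Y RNA genes lie on chromosome 6, Rny1 at chr6:47788069-47788180 on the minus strand and Rny3 at chr6:47781624-47781725 on the plus strand, and the capitals mark the terminal run of T.
Rny1: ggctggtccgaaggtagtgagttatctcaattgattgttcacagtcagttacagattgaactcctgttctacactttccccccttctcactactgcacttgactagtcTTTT
Rny3: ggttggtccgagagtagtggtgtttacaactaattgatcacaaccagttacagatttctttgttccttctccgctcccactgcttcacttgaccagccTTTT

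The snoRNAs fall into a C/D class and an H/ACA class, and a pair of each is shown with its class letters in capitals. Snord118 (chr11:69073427-69073561, plus strand) and Snord17 (chr2:144265979-144266216, minus strand) have TGATGA and, near the end, CTGA. Snora73b (chr4:132352322-132352526, minus strand) and Snora23 (chr7:110046364-110046547, plus strand) have ACA close to the end.
Snord118: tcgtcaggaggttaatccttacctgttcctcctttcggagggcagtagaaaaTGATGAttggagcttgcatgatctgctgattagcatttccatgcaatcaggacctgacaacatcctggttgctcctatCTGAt
Snord17: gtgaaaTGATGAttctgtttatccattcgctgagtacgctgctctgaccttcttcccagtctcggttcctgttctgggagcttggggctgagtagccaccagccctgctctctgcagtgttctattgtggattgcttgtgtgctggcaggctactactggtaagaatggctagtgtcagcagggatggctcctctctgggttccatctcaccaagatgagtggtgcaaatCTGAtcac
Snora73b: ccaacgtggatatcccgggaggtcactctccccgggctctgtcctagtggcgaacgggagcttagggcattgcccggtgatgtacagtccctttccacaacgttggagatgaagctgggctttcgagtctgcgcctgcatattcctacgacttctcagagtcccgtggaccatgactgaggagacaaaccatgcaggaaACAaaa
Snora23: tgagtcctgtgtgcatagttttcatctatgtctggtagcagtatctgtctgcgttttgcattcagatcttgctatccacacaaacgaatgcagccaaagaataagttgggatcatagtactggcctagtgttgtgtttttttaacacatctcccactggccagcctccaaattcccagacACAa

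The histone genes are shown by the stretch around their stem-loop, with both arms of the stem in capitals. The sites are at chr13:23581945-23581970 (Hist1h4d, plus), chr13:23561898-23561923 (Hist1h3e, minus), chr13:21810893-21810918 (Hist1h2ao, plus), chr6:136803993-136804018 (Hist4h4, minus) and chr13:23739507-23739532 (Hist1h1c, plus).
Hist1h4d: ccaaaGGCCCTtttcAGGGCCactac
Hist1h3e: aaaacGGCTCTtttaAGAGCCacctc
Hist1h2ao: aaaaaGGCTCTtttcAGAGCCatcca
Hist4h4: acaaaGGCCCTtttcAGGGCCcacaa
Hist1h1c: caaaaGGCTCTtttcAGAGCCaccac
An AATAAA near the annotated end is shown in capitals for the linker histone gene Hist1h1c (chr13:23740332-23740359, plus), the H2B gene Hist2h2be (chr3:96223707-96223734, plus), and the replacement variant genes H3f3b (chr11:116021987-116022014, minus) and H2afz (chr3:137866792-137866818, plus).
Hist1h1c: gtatgcttctAATAAAaagcgtttagtt
Hist2h2be: tattattattAATAAAgttaccgattag
H3f3b: aggccttacaAATAAActagtaagtttg
H2afz: ggataagctcAATAAAggtcatatccc

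The values are read counts per gene. The 6 libraries held 27.99 to 63.16 M counts, and between 21045 and 22702 of the 49568 gene names had a count. A count of 0 allowed up to 3 counts, which was 0.0548 to 0.120 CPM (counts relative to library size), and this floor covers counting error only. CPM here are scaled by edgeR's TMM factors, which were 1.138, 1.135 and 1.144 in PBS 1–3 and 0.867, 0.872 and 0.895 in PBS 4–6. Libraries of the same set had Pearson correlations of 0.993 to 0.998 between their log2 CPM over 6 pairs, and libraries of different sets had 0.897 to 0.912 over 9 pairs.

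A gene was called higher or lower in PBS 4–6 at an adjusted p below 0.05 in edgeR's quasi-likelihood test with a fold over 1.5. Of the 15344 genes that passed the filter on low counts, 4298 were called higher (28.0%) and 3561 lower (23.2%), so 51.2% of all tested genes were called, and every count below is to be read against these shares. Every library of PBS 4–6 was above every library of PBS 1–3 for 5884 genes (38.3%) and below for 5818 (37.9%). The filter lets a gene through when either set of libraries reaches it, so a gene at or near 0 in PBS 1–3 that passed had to be higher in PBS 4–6, and the counts of members that passed describe those members only. Without TMM scaling the median log2 fold change of all genes lay at −0.37 and 2919 genes were higher and 6003 lower, so 32.7% of calls were higher in place of 54.7%, and folds below are relative to the TMM scale. The 10 macrophage markers examined were all detected, and their summed level was 7955 to 9331 CPM in PBS 1–3 and 4920 to 6615 CPM in PBS 4–6. Markers of B cells and epithelial cells summed to at most 0.187 CPM in any library, 4 of 5 neutrophil markers, and 3 of 5 erythroid markers were at 0 in all 6 libraries. The 5 T cell markers summed to 7.74–10.9 CPM in PBS 1–3 and 9.04–13.9 CPM in PBS 4–6, with Cd3e and Cd3d at 0 in all 6 libraries. Fibroblast markers summed to 0.272–0.375 CPM in PBS 1–3 and 0.562–0.694 CPM in PBS 4–6, and endothelial markers to 0.574–0.875 and 1.18–1.73 CPM. Fewer cells of a type and less RNA per cell cannot be told apart in bulk libraries.

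Small structural RNAs held a large share of the counts in PBS 4–6 and almost none in PBS 1–3, while mRNAs and pseudogenes held lower shares in PBS 4–6. Shares of a library sum to a fixed whole, so a higher share of 1 class lowers the others. The class called other small RNA here, which holds the polymerase III transcripts and ribozymes named above, was 0.0136%, 0.0102% and 0.0104% of counts in PBS 1–3 and 21.3%, 20.6% and 19.1% in PBS 4–6. Protein-coding genes other than the replication-dependent histones and the mitochondrial mRNAs, called other protein-coding genes here, were 82.3%, 83.5% and 83.5% in PBS 1–3. In PBS 4–6 they were 62.7%, 63.7% and 66.4%. Pseudogenes were 12.3%, 12.6% and 12.3% against 6.21%, 6.46% and 6.16%. The sets did not overlap in any of these 3 classes. The sizes depend on few genes and on copies counted under more than 1 name. With 1 gene per small RNP family the mean share of other small RNAs was 11.4 percentage points higher in PBS 4–6 in place of 20.3, and without genes over 1% of a library the difference was 2.98 points for other small RNAs and −0.874 in place of −18.8 for other protein-coding genes.

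Among the smaller classes, snRNAs had a mean share of 0.00659% ± 0.00348 (SD, n = 3) in PBS 1–3 and 0.660% ± 0.0503 (SD, n = 3) in PBS 4–6. The mean share of snoRNAs was 0.00329% ± 0.000911 against 0.178% ± 0.0447, and that of scaRNAs was 0.000133% ± 2.87e-05 against 0.0253% ± 0.00212. Replication-dependent histones were at 0.0187%, 0.0176% and 0.0178% in PBS 1–3 and at 0.468%, 0.370% and 0.236% in PBS 4–6. Within PBS 4–6 the histone share of library 4 was the highest and that of library 6 the lowest, a wider spread than in PBS 1–3. Long noncoding RNAs had 1.05%, 0.760% and 0.888% against 2.73%, 2.36% and 2.57%, and the 2 mitochondrial rRNAs had a mean of 0.0464% ± 0.0134 against 1.70% ± 0.244. The tested long noncoding RNAs summed to 7794 CPM in PBS 1–3 and 28916 CPM in PBS 4–6. Of these, Gm26917 and Gm42418, which overlap rRNA sequence, had means of 645 and 3714 CPM against 17897 and 2015 CPM. Malat1 had 161 against 4765 CPM. Without genes over 1% of a library the share difference of the class was 0.447 points in place of 1.66. The share of mitochondrial mRNAs, 2.89% ± 0.533 against 3.16% ± 0.217, overlapped between the sets (exact permutation p = 0.5, two-sided), as did that of miRNA genes (exact permutation p = 0.3). For every class whose sets did not overlap the exact permutation test gave p = 0.1, the smallest value that 3 libraries against 3 allow.

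**Figure D1:**
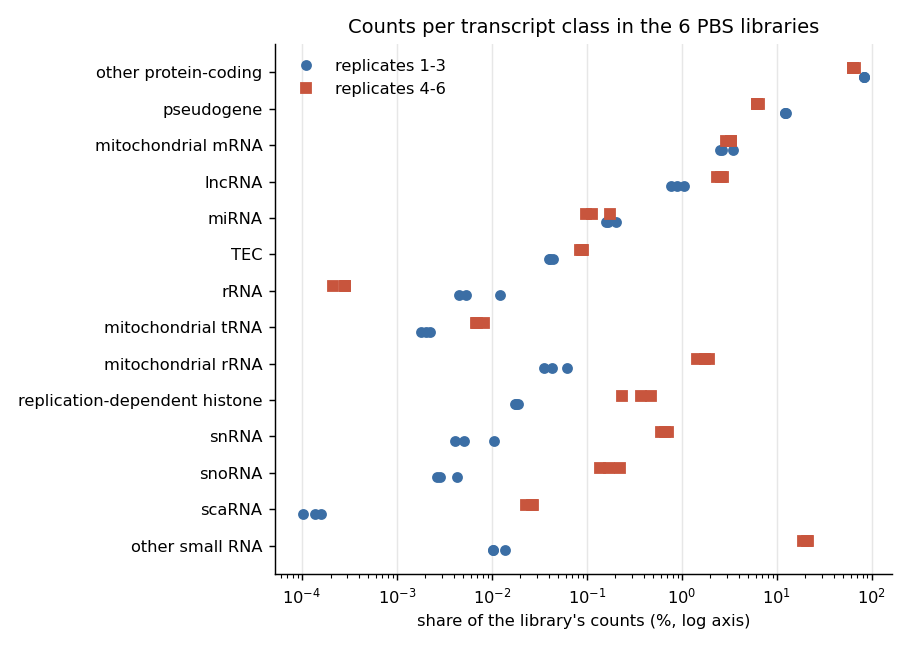
Share of each library's counts (percent, log axis) taken by each transcript class, with 1 point per PBS library and replicates 1–3 and 4–6 in different colours. Other small RNAs stand at 0.0102–0.0136% in PBS 1–3 and at 19.1–21.3% in PBS 4–6, pseudogenes stand at 12.3–12.6% and 6.16–6.46%, and mitochondrial mRNAs overlap. Copies such as Rn7s1 and Rn7s2 are each counted.

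The polymerase III transcripts, RNase RNAs and Terc were called higher throughout. All 12 listed genes of this group passed the filter and were called, with a median log2 fold change of 11.04 (9.14 with the 4 genes at 0 in PBS 1–3 set to their lower bound), against 28.0% of all tested genes. Rn7s1, the signal recognition particle RNA that steers secreted proteins to the endoplasmic reticulum, measured 6.95, 3.27 and 3.31 CPM in PBS 1–3 and 80951, 70511 and 67690 CPM in PBS 4–6 (log2 fold change 13.97, standard error 0.39, adjusted p = 1.91e-08). It had the highest CPM of all tested genes in each library of PBS 4–6. Rn7s2 has the same 300 bases as Rn7s1 and had the same count in each of PBS 1–3 (247, 108 and 106). In PBS 4–6 Rn7s1 had 4434353, 1756838 and 2818598 counts and Rn7s2 had 3917857, 1755422 and 2818589. The pair cannot be told apart, and their reads may be counted under both names. Rn7s6, a further gene of this family, measured 0.985, 0.574 and 0.469 CPM against 24387, 25776 and 20016 CPM.

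Rn7sk, which holds the elongation factor P-TEFb in an inactive complex, measured 32.4, 25.8 and 26.1 CPM in PBS 1–3 and 23992, 24406 and 20438 CPM in PBS 4–6 (log2 fold change 9.67, standard error 0.18, adjusted p = 2.21e-09). Rpph1, the RNA of RNase P, which trims the leader of tRNA precursors, measured 8.16, 5.59 and 7.21 CPM against 16332, 16243 and 15656 CPM (log2 fold change 11.17). Rmrp, the RNA of the related RNase MRP that cuts pre-rRNA, measured 8.78, 4.17 and 4.31 CPM against 4534, 4953 and 3644 CPM (log2 fold change 9.56). In each of these genes all 3 libraries of PBS 4–6 were close together and far above all 3 of PBS 1–3, and Rn7sk kept the highest level of them in PBS 1–3.

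The Y RNAs printed above were not counted at all in PBS 1–3. Rny1 measured 35.5, 48.2 and 27.6 CPM in PBS 4–6, at least 396-fold higher when 3 counts per library, at the highest floor of PBS 1–3, stand for its 0. Rny3 measured 20.6, 26.7 and 10.8 CPM, at least 206.7-fold higher. The vault RNA Vaultrc5 measured 1.13, 0.574 and 0.843 CPM against 161, 126 and 101 CPM (log2 fold change 7.24). The RNase P related genes behaved unevenly. Rprl3 measured 0.394, 0.181 and 0.344 CPM against 636, 637 and 527 CPM, whereas Rprl2 had no count in PBS 1–3 and 14.7, 18 and 86.4 CPM in PBS 4–6, most of it in library 6. Terc, the RNA template of telomerase, is made by polymerase II but also lacks a long poly(A) tail in its mature form, and measured 0.0563, 0.121 and 0.0625 CPM against 18.7, 18.1 and 11.9 CPM (log2 fold change 7.61, standard error 0.33, adjusted p = 1.43e-07).

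**Figure D2:**
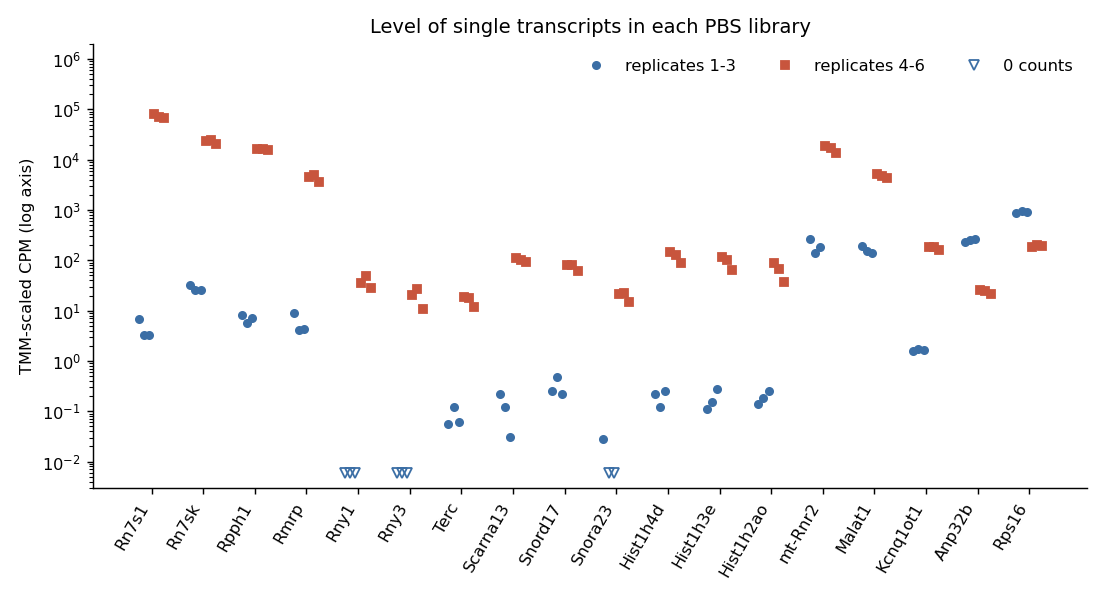
TMM-scaled CPM (log axis) of 18 genes in each of the 6 PBS libraries, 1 point per library, with open triangles for a count of 0. Rn7s1 stands at 3.27–6.95 CPM in PBS 1–3 and at 67690–80951 CPM in PBS 4–6, Rny1 and Rny3 are at 0 in PBS 1–3, and Anp32b and Rps16 lie lower in PBS 4–6.

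The spliceosomal snRNAs, which pair with splice sites and with each other in the spliceosome, were called higher in 50 of the 55 genes tested out of 1382 names, with none lower and a median log2 fold change of 7.0 (5.57 with genes at 0 in PBS 1–3 set to their lower bound). The U1 gene Rnu1b6 measured 4.19, 2.00 and 2.22 CPM in PBS 1–3 and 729, 770.1 and 719.8 CPM in PBS 4–6 (log2 fold change 8.03, adjusted p = 2.86e-08). The U2 gene Rnu2-10 measured 3.29, 0.665 and 1.37 CPM against 250.4, 258 and 180.4 CPM. For both genes the lowest library of PBS 4–6 was far above the highest of PBS 1–3. Many snRNA names are near-identical copies, so single gene values are uncertain: Gm24497, which rose from 1.38, 0.605 and 0.406 CPM to 615, 634 and 492 CPM, differs by 1 of 191 bases from Gm23472.

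Among snoRNAs, which guide chemical marks on rRNA or its cleavage, 64 of 68 tested genes were called higher out of 1485 names and none lower (median log2 fold change 5.09, or 4.19 with genes at 0 set to their bound). Snord17, whose sequence is shown above, measured 0.253, 0.484 and 0.219 CPM against 80.7, 80.2 and 62.0 CPM (log2 fold change 7.85, standard error 0.22, adjusted p = 1.90e-08). Snora73b measured 0.957, 0.605 and 0.843 CPM against 52.8, 57.1 and 41.4 CPM (log2 fold change 5.96). Rnu3a, a U3 gene needed for pre-rRNA cleavage, measured 0.506, 0.242 and 0.718 CPM against 109.8, 156 and 81.3 CPM (log2 fold change 7.88). None of the 3 overlapped between the sets, which the choice of Snord17 and Snora73b required.

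Snora23 was at 0.0281 CPM in PBS 1, from 1 read, and at 0 in PBS 2 and 3, and measured 21.3, 22.1 and 15.0 CPM in PBS 4–6. Snord118, the U8 RNA that acts on large-subunit rRNA, was at 0 in PBS 1 and 2 and at 0.0625 CPM in PBS 3, and measured 6.99, 6.38 and 6.44 CPM in PBS 4–6. The scaRNAs, which modify snRNAs in Cajal bodies, rose in 9 of the 9 tested genes out of 46 names (median log2 fold change 7.96). Scarna13 measured 0.225, 0.121 and 0.0312 CPM against 113, 100.4 and 93.4 CPM (log2 fold change 9.59, or 10.31 without PBS replicate 1). Of 15 genes tested that host snoRNAs in their introns, 3 were called higher and 2 lower, with a median log2 fold change of −0.15, and Snhg12 fell by 0.61 on the log2 scale.

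Short and long snoRNAs passed the filter unequally. Of the 458 snoRNA names of up to 100 bases, 18 passed the filter and 15 were called higher, with a median level of 1.14 CPM in PBS 4–6. Of the 22 snoRNA names longer than 200 bases, 15 passed and 15 were called higher, with a median of 28.3 CPM. A gene was counted for a motif when any of its annotated transcripts had it, so genes with more transcripts had more occasions to match. Of the 60 tested snoRNAs with a transcript sequence, 15 had TGATGA and, in the same or another transcript, CTGA in the last 10 bases. That held for 15.4% of other protein-coding genes. ACA in the last 6 bases was found in 36 of the 60 snoRNAs and in 32.4% of other protein-coding genes. Only the strand of the transcript was searched, and a match says only that the letters are there. TTTT in the last 10 bases, the feature printed for the Y RNAs, was found in 5 of the 34 tested other small RNAs with a transcript (14.7%) and in 26.3% of other protein-coding genes. AATAAA in the last 50 bases was found in none of the tested snoRNAs, scaRNAs, snRNAs or other small RNAs, and in 77.4% of the 11138 other protein-coding genes.

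The annotated miRNA genes did not move as 1 group. Of 2151 names 46 passed the filter, and 19 were called higher and 16 lower. Gm24105 measured 0.0844, 0.0302 and 0.0312 CPM in PBS 1–3 and 86.5, 86.3 and 85.0 CPM in PBS 4–6 (log2 fold change 10.66, or 11.29 without PBS replicate 1). Gm24098 went the other way, from 3.97, 3.08 and 3.40 CPM to 0.073, 0.0803 and 0.0721 CPM (log2 fold change −5.49). Both were far apart between the sets and close within them. These reads cover annotated precursor genes in libraries that are not made for mature miRNAs.

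Replication-dependent histone genes rose in every family. Of 70 names 65 passed the filter, 64 were called higher and none lower, with a median log2 fold change of 6.33. All 5 tested linker H1 genes, 18 of 18 H2A, 17 of 18 H2B, 11 of 11 H3 and 13 of 13 H4 genes were called higher. The family medians on the log2 scale were 6.19 for H1, 7.31 for H2A, 3.19 for H2B, 7.82 for H3 and 6.38 for H4. Histone genes are alike in sequence, so reads could have been split or shared among members of a family.

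Hist1h4d, an H4 gene of the large cluster on chromosome 13, measured 0.225, 0.121 and 0.250 CPM in PBS 1–3 and 149.9, 125 and 87.9 CPM in PBS 4–6 (log2 fold change 9.23, standard error 0.30, adjusted p = 3.70e-08). The H3 gene Hist1h3e measured 0.113, 0.151 and 0.281 CPM against 118, 101 and 63.9 CPM (log2 fold change 9.02). The H2A gene Hist1h2ao measured 0.141, 0.181 and 0.250 CPM against 89.6, 66.2 and 36.3 CPM (log2 fold change 8.38). In all 3 genes PBS 4 was highest, PBS 6 was lowest of its set, and no library of the sets overlapped, which the choice of these genes required. The linker gene Hist1h1a was also uneven inside PBS 4–6, with 42.7 and 38.5 CPM in libraries 4 and 5 and 11.7 CPM in library 6, against 0, 0.121 and 0.0625 CPM in PBS 1–3.

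The histone genes were also sorted by the annotated end of the transcript. AATAAA lay within the last 50 bases of an annotated transcript in 12 of the 65 tested histone genes (18.5%). These 12 had a median level of 1.70 CPM in PBS 1–3 and a median log2 fold change of 3.57, with a range of 0.08 to 8.54. The other 53 had a median level of 0.441 CPM in PBS 1–3 and a median log2 fold change of 6.49, with a range of 2.04 to 9.23. The ranges overlap widely, and no test was made of this difference. The sorting also follows family, since 5 of the 12 are H2B genes, the family with the lowest median. Within H2B these 5 had log2 fold changes of 0.08, 2.92, 3.33, 3.54 and 3.60, and all but the first lay inside the 2.04 to 5.86 of the other H2B genes.

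Hist1h1c, which has both a stem-loop and an AATAAA (shown above), measured 38.6, 32.6 and 31.6 CPM in PBS 1–3 and 119, 101 and 82.6 CPM in PBS 4–6 (log2 fold change 1.56, standard error 0.14, adjusted p = 7.01e-06). Hist2h2be was the only tested member not called, at 7.23, 6.53 and 6.34 CPM against 8.18, 7.75 and 5.33 CPM (log2 fold change 0.08, standard error 0.17, adjusted p = 0.692), and its sets overlapped. Hist4h4 also has AATAAA near its annotated end but measured 0.253, 0.0605 and 0.219 CPM against 83.0, 73.7 and 46.3 CPM (log2 fold change 8.54). The H2B gene Hist1h2bc had the smallest rise of the genes without AATAAA, from 15.2, 15.7 and 15.2 CPM to 76.7, 67.5 and 45.8 CPM (log2 fold change 2.04).

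The stem-loop was searched as GGCTCTNNNNAGAGCC or GGCCCTNNNNAGGGCC anywhere in any annotated transcript of a gene, letters that are their own reverse complement. It was found in 40 of the 65 tested histone genes (61.5%) and in 24 of 11138 other protein-coding genes (0.215%). The latter have longer transcripts, with a median of 3368 bases against 528 for the longest transcript of each gene. An annotated transcript can stop short of the loop or carry a variant of it, so no match is not read as the lack of one.

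**Figure D3:**
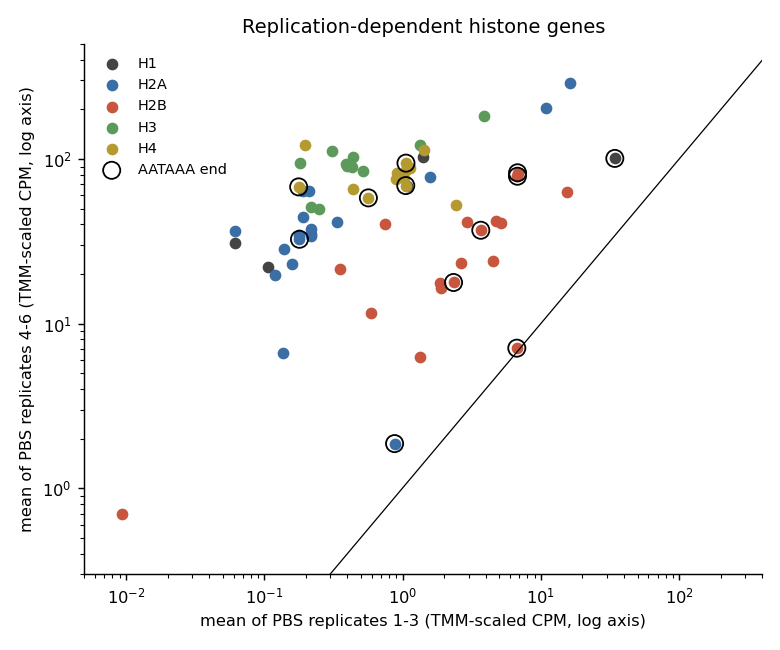
Mean CPM in PBS 4–6 against mean CPM in PBS 1–3 (both log axes) for the tested replication-dependent histone genes, coloured by family, with black rings around the 12 genes that have AATAAA in the last 50 bases and a diagonal of equal levels. All but Hist2h2be, which sits on the diagonal at 6.70 and 7.08 CPM, were called higher in PBS 4–6.

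The replacement histone variants, made from polyadenylated mRNAs outside S phase as well, showed no such rise. Of 10 tested, none was called higher and 5 were called lower (median log2 fold change −0.61). H3f3b measured 242, 238 and 249.6 CPM against 289, 286 and 272 CPM, a log2 fold change of 0.22 that was below the fold required. H2afz measured 189.8, 158 and 172 CPM against 120.2, 119 and 111 CPM (log2 fold change −0.57, also below it). Cenpa, the H3 variant of centromeres, fell from 25.5, 25.6 and 31.7 CPM to 13.3, 13.0 and 10.1 CPM (log2 fold change −1.19, adjusted p = 3.85e-05).

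Genes that process histone mRNA ends or drive histone transcription were measured beside them. Of 10 tested, 3 were called higher and 1 lower, and the sum of the group was 396 CPM in PBS 1–3 and 438 CPM in PBS 4–6. Npat, the coactivator of histone genes, measured 16.5, 12.4 and 10.2 CPM against 41.1, 43.1 and 36.7 CPM (log2 fold change 1.62). Its excess over other protein-coding genes of like GC content and length was 0.30 on the log2 scale. Casp8ap2, a further factor of histone loci, had a log2 fold change of 1.85 and an excess of 0.16.

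Genes of the biotype TEC, loci that await experimental evidence, rose in 377 of 425 tested genes out of 2493 names, and 11 were lower (median log2 fold change 4.85, or 3.65 with genes at 0 set to their bound). By position, 280 of 422 (66.4%) lay in an intron of a protein-coding gene on the same strand, against 46.9% of all TEC names in the table, and 268 of these 280 were called higher. Of the 425 tested, 86 were at 0 in PBS 1–3 and so passed the filter only through PBS 4–6. The share in introns and the counts called therefore describe the genes that passed, and no excess is read from them. Of the 85 that lay outside protein-coding genes 63 were called higher (median 3.37, or 2.98 with genes at 0 set to their bound). Long noncoding RNAs in an intron on the same strand were higher in 69 of 80 tested, with a median log2 fold change of 4.47 (3.64 with genes at 0 set to their bound), while the 311 that lay outside had a median of 0.64. The same limit of the filter applies to them.

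The TEC gene Gm37653, in an intron of Rc3h1 on chromosome 1, was at 0 in PBS 1 and 2 and at 0.0312 CPM in PBS 3, from 1 read, and measured 4.05, 4.17 and 2.81 CPM in PBS 4–6. Its host Rc3h1, an RNA-binding repressor of immune mRNAs, measured 38.0, 30.1 and 29.5 CPM against 92.0, 88.5 and 93.9 CPM. Gm42664, annotated as a sense-intronic long noncoding RNA in an intron of the splicing regulator gene Ptbp2, was at 0.0281, 0.0302 and 0 CPM and measured 4.24, 3.73 and 3.96 CPM. Reads on an intronic gene could come from that gene or from unspliced RNA of its host, and these were not told apart.

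Among long noncoding RNAs, 426 of 809 tested genes were called higher and 51 lower (median log2 fold change 0.81). Malat1, a nuclear RNA whose end is formed by RNase P and carries no poly(A) tail, measured 189, 155 and 138 CPM in PBS 1–3 and 5132, 4854 and 4309 CPM in PBS 4–6 (log2 fold change 4.89, standard error 0.15, adjusted p = 2.86e-08). Kcnq1ot1, an unspliced nuclear RNA that silences imprinted genes, measured 1.58, 1.69 and 1.62 CPM against 185, 183 and 159 CPM (log2 fold change 6.75, standard error 0.11, adjusted p = 1.36e-09). Neat1, which builds paraspeckles, has a short polyadenylated form and measured 153, 137 and 121 CPM against 224, 198 and 159 CPM, a log2 fold change of 0.50 that was below the fold required. Of 10 nuclear long noncoding RNAs tested as a list, 8 were called higher and none lower.

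**Figure D4:**
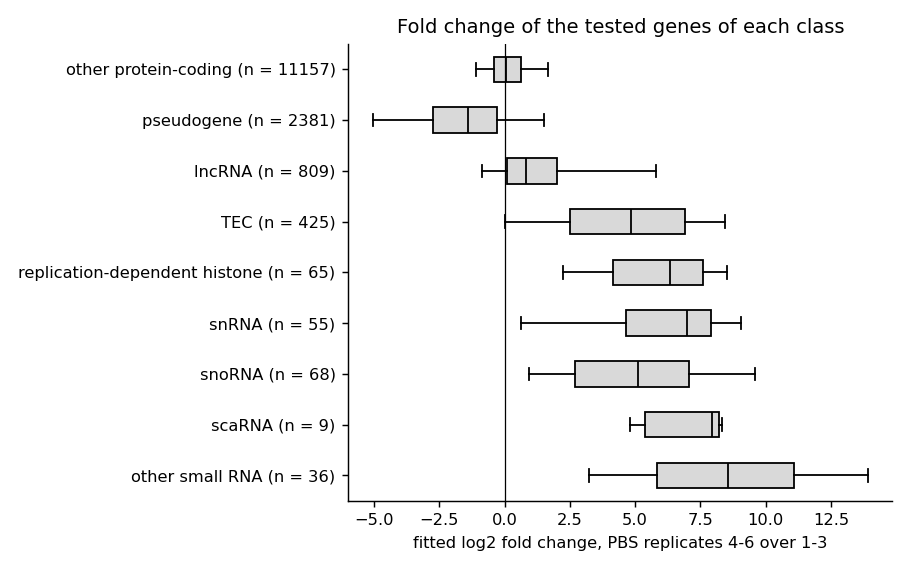
Fitted log2 fold change of PBS 4–6 against PBS 1–3 in each transcript class, with boxes for quartiles and whiskers for the 5th to 95th percentile of the tested genes. Medians stand at 8.57 for other small RNAs (7.42 with genes at 0 set to their bound), 6.33 for histones and 4.85 for TEC genes, near 0 for other protein-coding genes, and at −1.42 for pseudogenes. Folds of genes at 0 in PBS 1–3 are fitted values, not bounds.

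Pseudogenes were the largest class that was lower. Of 10011 names 2381 passed the filter, 1603 were called lower and 252 higher, with a median log2 fold change of −1.42, against 23.2% of all tested genes lower. Among processed pseudogenes, copies of spliced mRNAs without introns, 1517 of 2141 tested genes (70.9%) were lower (median −1.58), whereas unprocessed pseudogenes had 36 higher and 30 lower of 107 tested (median 0.18). Gm15877 measured 6.28, 6.71 and 5.15 CPM in PBS 1–3 and 0.0730, 0.0401 and 0.0480 CPM in PBS 4–6 (log2 fold change −6.64, standard error 0.28, adjusted p = 1.34e-07). Gm14032 measured 2.90, 2.75 and 3.06 CPM against 0, 0.0401 and 0.0240 CPM. Reads of a processed pseudogene and of its parent mRNA can be exchanged by the aligner, so these values are uncertain as gene expression.

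Genes that overlap rRNA sequence moved in both directions. Gm26917, a chromosome 17 gene over rRNA repeat sequence, measured 543, 601 and 792 CPM against 19442, 16047 and 18202 CPM (log2 fold change 4.79). Its neighbour Gm42418 measured 5115, 2539 and 3487 CPM against 2415, 1706 and 1923 CPM (log2 fold change −0.88, adjusted p = 0.00685). Lars2, the mitochondrial leucyl-tRNA synthetase, which holds rRNA-like sequence in its annotated transcript, fell from 825, 557 and 577 CPM to 53.8, 24.1 and 22.1 CPM (log2 fold change −4.28). The 6 tested genes of biotype rRNA were all lower, and their share of counts was 0.0122%, 0.00453% and 0.00536% in PBS 1–3 and 0.000282%, 0.000284% and 0.000213% in PBS 4–6. Library 1 was the highest of the 6 for Gm42418, Lars2 and this class.

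The mitochondrial rRNAs rose while the mRNAs of the same genome were split. The large-subunit rRNA mt-Rnr2 measured 271, 142 and 185 CPM in PBS 1–3 and 18618, 17058 and 13690 CPM in PBS 4–6 (log2 fold change 6.37, standard error 0.27, adjusted p = 1.37e-07). The small-subunit rRNA mt-Rnr1 measured 268, 168 and 189 CPM against 3457, 3009 and 2350 CPM (log2 fold change 3.82). Of the 13 mitochondrial mRNAs 5 were called higher and 5 lower. The cytochrome oxidase subunit mt-Co1 measured 10006, 8099 and 8585 CPM against 20133, 20513 and 18357 CPM (log2 fold change 1.15), while mt-Nd4l measured 166, 95.5 and 105 CPM against 45.3, 40.5 and 31.1 CPM (log2 fold change −1.65). Nuclear copies of mitochondrial genes share reads with them: mt-Co2 held 99.94% to 99.98% of the count of the pseudogene Gm28661 in each library.

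Protein-coding genes other than histones and mitochondrial mRNAs were called higher in 2904 of 11157 tested (26.0%) and lower in 1768 (15.8%). Their fold change followed base composition and length. With the genes cut into 10 bins of nearly equal size, the bin of the lowest GC content, 30.96% to 41.2% of transcript bases, had 805 of 1116 genes higher, and its median log2 fold change was 1.06. In the bin of the highest, 57.71% to 74.67%, the median was −0.53 and 479 of 1116 were lower. By length, the median ran from −0.40 in the bin of the shortest transcripts (234 to 1438 bases) to 0.93 in that of the longest (from 6689 bases). Pearson's r across the 11157 genes was −0.55 with GC content and 0.40 with log2 length, as a description over genes that share the 6 libraries and are not independent. GC content and log2 length had r = −0.24 with each other.

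Both gradients were present when the other property was held to a part of its range. Among transcripts shorter than the median the lowest and highest GC bins had medians of 0.70 and −0.55, and among longer ones 1.24 and −0.47. Among transcripts of below-median GC the shortest and longest bins had −0.19 and 1.25, and among those above it −0.47 and 0.24. In the 65–79*PE libraries the same set comparison gave medians from 1.27 to −0.69 across the GC bins, and in the PBS libraries of the Il-4 table they ran from 0.91 to −0.63.

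**Figure D5:**
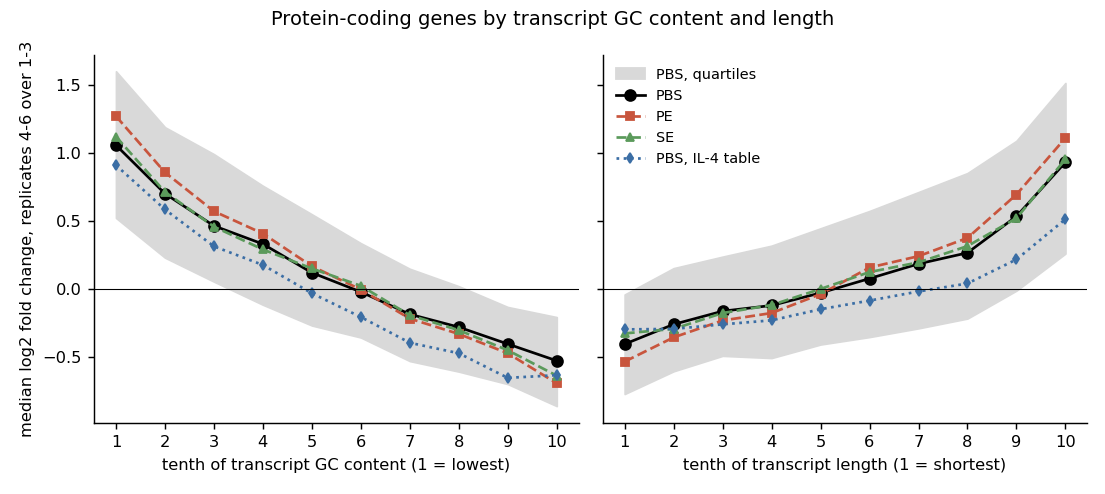
Median log2 fold change of replicates 4–6 against 1–3 for protein-coding genes in 10 bins of transcript GC content and of transcript length, for PBS (with a band from the lower to the upper quartile), 65–79*PE and 65–79*SE of the IFNγ table and PBS of the Il-4 table. For PBS the lines run from 1.06 down to −0.53 across GC and from −0.40 up to 0.93 across length, and the other libraries follow the same direction.

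Among well expressed mRNAs with the largest rises, Taf1d, a subunit of the polymerase I factor SL1 whose introns host snoRNAs, rose from 38.2, 35.6 and 36.1 CPM to 490.1, 491 and 581 CPM (log2 fold change 3.83, standard error 0.10, adjusted p = 1.44e-08), and its excess over genes of like GC content and length was 2.53. Lcor, a corepressor of nuclear receptors, rose from 2.08, 1.84 and 1.06 CPM to 23.2, 20.2 and 25.6 CPM (log2 fold change 3.78). Lnpep, an aminopeptidase that trims peptides for cross-presentation, rose from 16.4, 11.5 and 9.43 CPM to 151, 154 and 163 CPM (log2 fold change 3.65). Lmbrd2, Ptchd1 and Nbeal1 had log2 fold changes of 3.67, 3.61 and 3.49. The rule by which these genes were named required a call and no overlap between the sets.

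On the lower side, Anp32b, a histone chaperone of the acidic nuclear phosphoprotein family, fell from 232, 257 and 262 CPM to 25.9, 24.0 and 21.4 CPM (log2 fold change −3.39, standard error 0.10, adjusted p = 2.33e-08). Mospd3 fell from 36.0, 41.5 and 41.8 CPM to 5.20, 4.46 and 3.53 CPM (log2 fold change −3.17). Gm8797, Gm11127 and the zinc finger gene Zfp385a had log2 fold changes of −2.97, −2.93 and −2.76. For Anp32b the difference from genes of like GC content and length was −3.01.

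Of 81 ribosomal protein genes tested none was called higher and 50 lower, with a median log2 fold change of −0.75, or −0.47 after the median of genes of like GC content and length was taken off. Rps16, a protein of the small ribosomal subunit, fell from 869, 971 and 922 CPM to 182, 205 and 193 CPM (log2 fold change −2.25, standard error 0.08, adjusted p = 6.83e-08). Of 74 nuclear genes of oxidative phosphorylation 2 were higher and 32 lower (median −0.50). Atp5e, a small subunit of ATP synthase, fell from 109, 112 and 105 CPM to 30.5, 30.3 and 26.5 CPM, and Uqcrb, of complex III, rose from 64.3, 59.6 and 54.0 CPM to 118, 122 and 124 CPM. In the PBS libraries of the Il-4 table, by contrast, 8 of 81 ribosomal protein genes were lower and 5 higher. The 2 tables treat reads on copies differently, as described below, so this contrast is uncertain where genes have copies.

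Gene groups that respond to the state of a culture were looked at next, since the study describes 2 experiments and the sources do not say which replicates belong to which. Of 26 DNA replication genes 2 were called higher and 4 lower (median log2 fold change −0.22), and the E2F family member E2f1, which drives S phase genes, fell from 32.1, 30.6 and 24.6 CPM to 13.9, 11.6 and 10.2 CPM (log2 fold change −1.29). Of 22 mitosis genes 2 were higher and 8 lower (median −0.30), and the kinase gene Plk1 fell from 18, 21.1 and 31.3 CPM to 9.55, 7.87 and 7.71 CPM (log2 fold change −1.48). Without PBS replicate 6 the count of mitosis genes called lower was 5. In PBS of the Il-4 table the counts were different, since 18 of 22 mitosis genes were higher and none lower, and 59 of 59 histones were higher there.

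Type I interferon genes were called higher in 12 of 17 tested and lower in none (median log2 fold change 0.91, and 0.90 after the median of like genes was taken off), and 6 were called without TMM scaling. Ifih1, the sensor MDA5 for long double-stranded RNA, rose from 11.6, 9.98 and 11.2 CPM to 36.1, 37.7 and 50.05 CPM (log2 fold change 1.92, standard error 0.14, adjusted p = 1.97e-06). Ifi44 rose from 52.9, 46.7 and 54.5 CPM to 124, 137 and 169 CPM (log2 fold change 1.48). In the 65–79*PE libraries 9 of these 17 genes were higher and 1 lower, with 65–79*SE 3 were higher and 9 lower, and in PBS of the Il-4 table, 5 were higher and 4 lower. Library 6 was the highest of the 6 for both genes named.

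Inflammatory genes were higher in 10 of 22 tested and lower in 1 (median log2 fold change 0.58), with 5 higher without TMM scaling. Ptgs2, the inducible cyclooxygenase, rose from 2.76, 2.57 and 3.97 CPM to 13.0, 17.1 and 42.8 CPM (log2 fold change 2.98, standard error 0.44, adjusted p = 0.000203). The chemokine gene Cxcl2 rose from 6.44, 10.9 and 14.0 CPM to 17.7, 20.8 and 49.3 CPM (log2 fold change 1.49, standard error 0.40, adjusted p = 0.00735). For both, library 6 was higher than the other two of its set added together. Without PBS replicate 6 the log2 fold change was 2.30 for Ptgs2 and 0.90 for Cxcl2, and both were still called. With 65–79*SE the set difference of these genes ran the other way, with 14 of 22 lower and none higher, and log2 fold changes of −3.82 for Ptgs2 and −2.76 for Cxcl2. Genes of the response to IFNγ itself were higher in 5 of 17 tested (29.4%), near the 28.0% of all tested genes, and lower in 1. With 65–79*SE all 17 were lower in replicates 4–6 (median log2 fold change −2.62), against 5 higher and 1 lower with 65–79*PE. The 2 sets of 65–79*SE libraries thus also differed in genes of the IFNγ response, and the cause was not tested.

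Of the antioxidant targets of NRF2, 6 of 14 were higher and 3 lower. Slc7a11, the cystine carrier that feeds glutathione synthesis, rose from 53.1, 40.8 and 45.4 CPM to 206, 213 and 406 CPM (log2 fold change 2.57), again highest in library 6. Fth1, the ferritin heavy chain, fell from 6774, 7144 and 6761 CPM to 3796, 3471 and 4270 CPM (log2 fold change −0.84). Glycolysis and hypoxia genes were lower in 7 of 19 tested and higher in none (median −0.36, or −0.11 after the median of like genes was taken off), and 4 were called lower without PBS replicate 2. Eno1, the glycolytic enolase, measured 2014, 3086 and 3092 CPM against 1369, 1511 and 1386 CPM, with library 1 lowest of its set.

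The macrophage markers were 1 higher and 4 lower of 10 tested. Ptprc, the CD45 phosphatase of all leukocytes, rose from 139.5, 104 and 104 CPM to 318, 342 and 307 CPM (log2 fold change 1.47, or 0.15 less the median of genes of like GC content and length). Csf1r, the receptor for macrophage colony-stimulating factor, fell from 699, 732 and 722 CPM to 409, 416 and 255 CPM (log2 fold change −1.0), and Cd14, a coreceptor for lipopolysaccharide, from 458, 482 and 459 CPM to 269, 266 and 236 CPM (log2 fold change −0.86).

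The same comparison of replicates 4–6 with 1–3 was made in the other libraries of the IFNγ table and in PBS of the Il-4 table. The latter's replicates 4–6 follow a naming scheme of their own, unlike that of PBS 4–6 here. PBS replicates 1–3 of that table carry the same 3 labels as PBS 1–3 here, and the sources do not say whether the cultures were shared. Over 9630 protein-coding genes with at least 50 counts in each library their log2 shares had Pearson correlations of 0.954 to 0.961 between tables for the same label and 0.954 to 0.964 for different labels, against 0.986 to 0.997 between libraries of 1 table. In the 65–79*PE libraries, with 56.3% of genes called, 5207 of 16845 tested genes were higher (30.9%) and 4282 lower (25.4%), in the 65–79*SE libraries 5091 (30.2%) and 4777 (28.4%), and in PBS of the Il-4 table, with 48.3% called, 3519 of 12954 (27.2%) and 2738 (21.1%). Of the 7859 genes called in PBS, 6854 were called the same way with 65–79*PE (87.2%) and 30 the other way, and 6010 (76.5%) and 260 with 65–79*SE. Of the PBS calls 5769 were tested in the Il-4 table, of which 3579 (62.0%) were called the same way and 250 the other way. The histones called in PBS were called higher in 64 of 64 with 65–79*PE, 64 of 64 with 65–79*SE and 58 of 58 in the Il-4 table.

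Classes differed in how far they recurred. Other small RNAs were 0.00301% of counts in 65–79*PE replicates 1–3 and 20.2% in 4–6, 0.00272% and 22.5% with 65–79*SE, and 0.00287% and 4.54% in PBS of the Il-4 table. Pseudogenes called in PBS were called the same way in 1741 of 1855 with 65–79*PE, but in 128 of 362 tested in the Il-4 table, where 122 went the other way. Pseudogenes also took only 0.430% and 0.508% of counts in the 2 sets of the Il-4 table, against 12.4% and 6.28% in PBS of the IFNγ table. The tables treat copies differently: Rn7s1 held 4434353, 1756838 and 2818598 counts in PBS 4–6 of the IFNγ table and 201, 442 and 355 in PBS 4–6 of the Il-4 table, so shares of repeated genes are not comparable between them.

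The difference between the sets was itself tested against that of the other treatments in the fit of 18 libraries. It differed between PBS and 65–79*PE for 1929 of 16845 genes (11.5%) and between PBS and 65–79*SE for 6017 (35.7%), at an adjusted p below 0.05. The 6017 included all 17 tested genes of the IFNγ response, which were lower in replicates 4–6 with 65–79*SE. Among tested histones 23 of 65 differed between PBS and 65–79*PE, and among other small RNAs 13 of 36. Rn7sk rose less in PBS than with 65–79*PE, by 9.67 against 11.80 on the log2 scale, and Rn7s1 by 13.97 against 15.54. The direction was the same for both.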

How the data were processed

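By the authors' methods, RAW264.7 RNA was made into libraries with a poly(A) kit and sequenced as single-end reads. The deposited values are whole-number counts of uniquely aligned reads per gene, by the methods, from featureCounts on GRCm38.p5, with DESeq2 1.16.1 and R 3.4.1 also named in the submitters' processing notes. The aligner and the strand option are not given in the sources used here. Genes that are exact copies nevertheless held nearly equal counts in the IFNγ table, so reads on copies are uncertain.

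Columns were assigned to samples by name, and all sample columns were mapped. Gene class, position and sequence came from GENCODE M21, a later release than that counted on. Of 49568 names 47214 matched by symbol and 457 by synonym (96.17%), and 26 names had been turned into dates. In R 4.3.3 edgeR 4.0.16 was fitted to the 6 PBS libraries (glmQLFit and glmQLFTest, filterByExpr, TMM, Benjamini-Hochberg adjustment over all tested genes). Calls needed an adjusted p below 0.05 and a fold over 1.5. The 65–79*PE, 65–79*SE and interaction tests used all 18 libraries of the table, and the Il-4 table was fitted alone. Class shares were compared by exact permutation tests, two-sided. The scripts were tested on simulated data. DESeq2 1.42.0, other scalings, filters and thresholds, and leaving out each replicate were tried as alternatives, and p-values measure the spread between libraries only.

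The set comparison, gene classes and lists were chosen with earlier results of these data known. Named genes were all tested small RNP, mitochondrial rRNA and rRNA-overlapping genes, and the called genes with the largest change each way whose sets did not overlap: up to 3 per class (6 for other protein-coding genes) and 2 per list, with a mean of at least 1 CPM, or 10 CPM for protein-coding genes and histones. Gm28661, H2afz, H3f3b, Hist1h1c, Hist1h2bc, Hist2h2be, mt-Co1, mt-Co2, Neat1, Ptbp2, Rc3h1, Rnu1b6, Rnu2-10 and Rnu3a fall outside this rule and were chosen after their values were seen. One sequence is not reported here.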

Additional observations from a re-analysis of the deposited data

Results flagged for a closer look

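The difference between replicates 4–6 and 1–3 differed between PBS and 65–79*PE for 26 of the genes considered by name, tested as an interaction in edgeR's fit of all 18 libraries of the IFNγ table (adjusted p from 0.000406 to 0.0465). The values below are the log2 difference in PBS minus that with 65–79*PE. The small RNA genes rose less in PBS, by −2.15 for Rn7sk, −1.75 for Rn7s6, −1.65 for Rn7s2 and −1.59 for Rn7s1, and so did the rRNA-overlapping gene Gm26917 at −1.12. For mt-Rnr1 the rise was larger in PBS by 1.23, while mt-Nd2 and mt-Nd4l had −0.77 and −0.78. The pseudogenes Gm14504 and Gm14032, near 0 in PBS 4–6, had −3.13 and −2.63.

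Among mRNAs the value was 1.73 for Cxcl2, 0.99 for Ptchd1, 0.97 for Gclm (a subunit of the first enzyme of glutathione synthesis), 0.89 for Fth1, 0.54 for Rps16, 0.42 for Grn and 0.31 for Taf1d. It was −1.08 for Csf1r, −0.88 for Gm11127, −0.86 for the kinetochore gene Cenpf, −0.80 for the melanocyte and osteoclast factor gene Mitf, −0.78 for Mospd3, −0.60 for the poly(A) polymerase gene Papolg, −0.52 for Ptprc, −0.43 for the lysosomal gene Psap and −0.43 for Tnfrsf11a, the receptor RANK. Csf1r fell in PBS by 1.00 and had 0.07 with 65–79*PE, and Cxcl2 had 1.49 and −0.25. The other nuclear mRNAs listed here had log2 fold changes of the same sign in both. The cause of these differences was not tested.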

How the results depend on the processing

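The 137 genes followed by name kept their direction under all alternatives in which they were tested, and at most 2 of them missed the threshold when any 1 replicate was left out, 9 without TMM scaling and 23 at a fold over 2. Most of them were named for being called with no overlap between the sets. Their steady direction was therefore largely fixed by that choice and is no test of it. Counts moved with the filter and the threshold. Of 7859 genes called, 5164 were called at a fold over 2 (2239 lower), and 6003 genes were lower without TMM scaling. Calls in protein-coding genes were 4743 in the main fit and 2452 at a fold over 2. When only protein-coding genes were fitted, 4838 were called (2712 higher, 2126 lower). Outside the protein-coding class calls were 5087 without the low-count filter and 1544 when every library needed 10 counts. In the same order, other small RNAs gave 60 and 12 higher, snoRNAs 134 and 9, snRNAs 157 and 22, TEC genes 709 and 25 and lncRNAs 798 and 174; with 10 counts, 36 histones were higher and 972 pseudogenes lower, since that filter drops genes near 0 in PBS 1–3. Without TMM scaling and at a fold over 2, type I interferon genes gave 6 and 6 higher, inflammatory genes 5 and 6 higher, mitosis genes 13 and 4 lower, and glycolysis and hypoxia genes 11 and 1 lower. After removal of the median of genes of like GC content and length, list medians were −0.59 for mitosis, −0.11 for glycolysis and hypoxia, −0.18 for cholesterol synthesis, 0.43 for NRF2 targets and −0.13 for lysosome genes.

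Share differences in percentage points, 4–6 minus 1–3, became, without genes over 1% of a library and with 1 gene per small RNP family, −0.874 and −11.7 for other protein-coding genes (from −18.8), −4.45 and −5.41 for pseudogenes (from −6.11), 2.98 and 11.4 for other small RNAs (from 20.3), and 0.447 and 1.94 for lncRNAs (from 1.66), and without genes over 1%, 0.314 for mitochondrial rRNA (from 1.65). Leaving out 1 replicate gave 7868 to 8329 calls, 5 to 8 mitosis genes lower (5 without PBS replicate 6), 4 to 10 glycolysis and hypoxia genes lower (4 without PBS replicate 2 or 3), and 1007 to 1978 genes whose set difference differed between PBS and 65–79*PE, with 1007 without PE replicate 3, 1230 without PBS replicate 1, 1275 without PE replicate 1 and 1242 without PE replicate 6. No paired analysis was possible because the 2 label sets share no replicate numbers. Depth limits statements on RNAs at 0 in PBS 1–3 to the floor of 3 counts.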

Other observations

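Other gene groups of the PBS libraries were mixed. Of 22 lysosome genes 8 were called lower in PBS 4–6 and 3 higher. Psap, the precursor of the saposins that help break down sphingolipids, fell from 3104, 2804 and 2566 CPM to 1312, 1161 and 1138 CPM (log2 fold change −1.23), and Grn, which encodes progranulin, fell from 2006, 2164 and 2137 CPM to 892, 852 and 988 CPM (log2 fold change −1.21). Lamp2, a lysosomal membrane protein gene, rose from 218, 157 and 148 CPM to 385, 390.0 and 419.7 CPM (log2 fold change 1.19). The choice of these 3 genes required no overlap between the sets.

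Of 22 cholesterol synthesis genes 3 were higher and 7 lower. Dhcr7, which makes the last step to cholesterol, fell from 39.7, 39.0 and 33.7 CPM to 14.3, 10.4 and 12.2 CPM (log2 fold change −1.60), and Hsd17b7 rose from 9.96, 7.65 and 6.81 CPM to 17.7, 19.1 and 18.6 CPM (log2 fold change 1.18). The heat shock list had 2 higher and 2 lower of 11 tested, with the cytosolic chaperone gene Hsp90aa1 at a log2 fold change of 0.67 and its paralog Hsp90ab1 at −0.68. Of 12 genes of the poly(A) machinery 4 were higher (33.3%, near the 28.0% of all tested genes) and none lower. Their median log2 fold change was 0.17, or −0.12 after the median of genes of like GC content and length was taken off. Papolg, a poly(A) polymerase gene, rose from 4.53, 4.32 and 3.94 CPM to 16.9, 18 and 19.2 CPM (log2 fold change 2.08).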
